A study of Mus musculus with 6 samples.

Results

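The genes described here encode the integrins and the proteins they work with at the membrane, in macrophages from the colonic lamina propria of mice recovering from colitis. They were chosen by gene symbol, with earlier results of these data known. They make up 35 of the 25124 gene rows of the deposited expression table. These are 18 integrin alpha chains, 8 integrin beta chains, 4 receptors of the Icam and Vcam type and 5 talins and kindlins. Transgenic mice overexpress E4BP4, a transcription factor encoded by Nfil3, specifically in macrophages, and were compared with wild type mice, with 3 RNA-seq libraries in each group. All mice were C57BL/6 and 8 weeks old, ate a normal diet, and drank 2.0% dextran sulfate sodium, which injures the colonic epithelium, for 7 days and plain water for 7 more days before collection on day 14. No group without colitis was analysed here. The labels do not name the promoter of the transgene or the markers used for sorting. The genotype field of transgenic replicates 2 and 3 ends the gene name with another digit than that of replicate 1, so groups follow the sample titles.

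Integrins are heterodimers of 1 alpha and 1 beta chain that bind extracellular matrix or receptors on other cells. The beta 2 chain pairs with alpha L, alpha M, alpha X and alpha D on leukocytes, the beta 7 chain pairs with alpha 4 and alpha E in gut leukocytes, and the beta 1 chain pairs with most matrix-binding alpha chains. Talins and kindlins bind the cytoplasmic tail of the beta chain and switch the receptor to its high-affinity form, and Icam and Vcam proteins are ligands on the opposing cell.

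Values are TPM, which scale reads for exon length and depth. Between 13.97 and 15.06 M reads (1 M is 1e6) in genes could be recovered per library, and the precision below covers these libraries only, since nothing in the labels says that they came from separate mice. Nfil3 was at 133, 134 and 141 TPM in transgenic libraries, against 117, 119.9 and 119 TPM in wild type libraries (log2 fold change 0.19 ± 0.0286 SE, limma adjusted p = 0.00261). Reads from the transgene would be part of that level only if it carries the mouse exon sequence, which the labels do not state. The 15 macrophage markers summed to between 20293 and 20382 TPM in transgenic libraries and between 20840 and 21079 TPM in wild type libraries, with Lyz2 and C1qa the most abundant and none listed at 0. Of these 15 markers 5 were called higher at a limma adjusted p below 0.05 (Cd163, Adgre1, Csf1r, Cx3cr1 and C1qa) and 5 lower (Cd14, Mertk, Lyz2, Fcgr1 and Cd68), against 8.71% and 13.2% of all tested genes. The largest log2 fold changes were 0.47 for Cd163, a scavenger receptor, and -0.29 for Cd14, the lipopolysaccharide co-receptor, both named after their values were seen. Cd68 lost its call with each rescaling of the libraries and turned sign with upper-quartile scaling (0.04), under which Fcgr1 was no longer called either.

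Itgam and Itgb2, the chains of complement receptor 3, were the most abundant integrin transcripts, and changes in transgenic libraries went both ways. Of the 35 genes, 26 reached a mean of 1 TPM in a group and were tested. In transgenic libraries 6 of these were higher (Itgae, Itga8, Itgb7, Itgax, Icam1 and Itga4) and 8 were lower (Itga3, Itga6, Itga5, Itgam, Itga9, Itgb1, Itgb2 and Itgb5; limma on log2(TPM + 1), adjusted p below 0.05). These shares compare with the 8.71% of all 12633 tested genes that were called higher and the 13.2% called lower, or 21.9% in either direction. Among genes averaging 20 TPM or more over the 6 libraries, where small changes are easier to call, 13.6% were called higher and 23.7% lower (37.3% in all), and of the 15 integrin and adhesion genes at that level 3 were higher and 7 lower. The groups did not overlap for 19 of the 26 tested members and for 39.3% of all tested genes. With 3 libraries against 3, the exact two-sided permutation test of a single gene cannot go below p = 0.1, and it gave 0.1 for each of those 19.

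An absolute log2 change of at least 0.32 on the log2(TPM + 1) scale was reached by 4 of the called members, with Itgae, Itga8 and Itgb7 higher and Itga3 lower. Under all 13 other settings tried 5 members kept their call, namely Itgam, Itga5, Itga6, Itgax and Itgae. Scaling each library to its upper quartile moved the median of all genes up by 0.085 (log2) and turned the split of calls, which was 39.8% higher, to 70.1% higher, or 2145 genes higher and 914 lower. Under that scaling 7 members were called higher and 4 lower, against 17% and 7.23% of all genes (24.2% in either direction), and the calls of Itga9, Itgb1, Itgb2 and Itgb5 were lost. Limma-voom on recovered reads called 6 members higher and 12 lower, against 13% and 16.4% of all genes (29.4% in either direction).

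**Figure D1:**
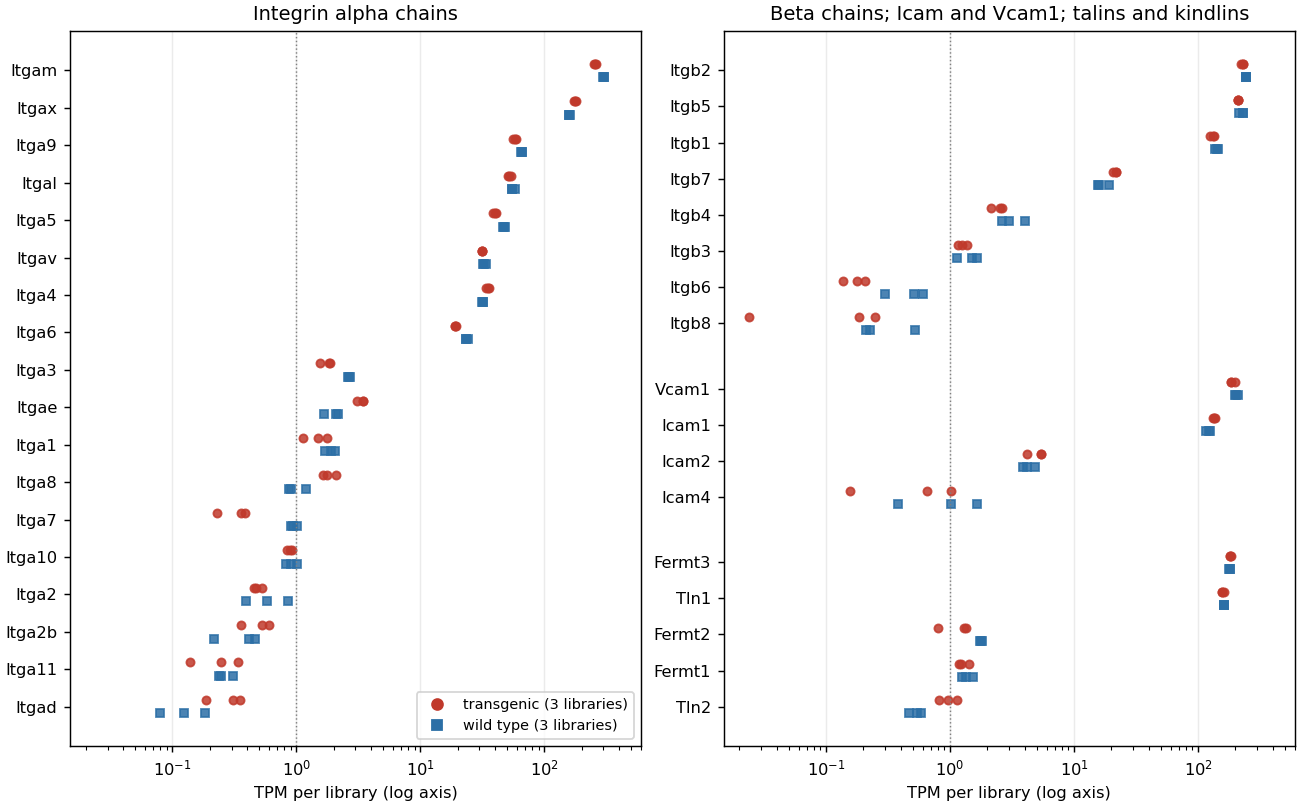
TPM of the 35 genes in every library (log axis), with transgenic libraries as red circles above wild type libraries as blue squares and the filter of 1 TPM as a dotted line. Itgam, Itgb2, Itgb5 and Vcam1 had the highest wild type means, and 9 genes lay below a mean of 1 TPM in both groups.

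The beta 2 family held the most abundant alpha chain and showed opposite changes in neighbouring genes. Itgam, the alpha M chain that pairs with beta 2 into complement receptor 3, was at 253, 259 and 258 TPM in transgenic libraries, against 295, 305 and 301 TPM in wild type libraries. Every transgenic library lay below every wild type library, and the log2 fold change was -0.23 ± 0.0209 (SE, limma adjusted p = 0.000237, and 1.54e-23 to 0.00971 over the other settings). Itgax, the alpha X chain (CD11c) of intestinal macrophages and dendritic cells, was at 176, 179 and 174 TPM in transgenic libraries, against 162, 158 and 158 TPM in wild type libraries. All transgenic libraries were above all wild type ones, with a log2 fold change of 0.15 ± 0.0236 (SE, limma adjusted p = 0.00345, at most 0.0162 over the other settings). These values rest on 46204 and 27379 reads for Itgam and Itgax in the transgenic group and 52590 and 24004 reads in the wild type group.

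Both genes lie on the plus strand of chromosome 7 (mm10), Itgam at 128062640 to 128118491 and Itgax at 128129550 to 128150657, with 11058 bases between them, and the deposited values count their exons. The 250 bases before each start are shown because the pair moved in opposite directions. They come from RefSeq (GRCm38.p6, plus strand, chr7:128062390-128062639 for Itgam and chr7:128129300-128129549 for Itgax). Capitals mark GAGGAA or its reverse complement TTCCTC, 1 form of the sites for PU.1, an ETS factor of myeloid cells.
Itgam: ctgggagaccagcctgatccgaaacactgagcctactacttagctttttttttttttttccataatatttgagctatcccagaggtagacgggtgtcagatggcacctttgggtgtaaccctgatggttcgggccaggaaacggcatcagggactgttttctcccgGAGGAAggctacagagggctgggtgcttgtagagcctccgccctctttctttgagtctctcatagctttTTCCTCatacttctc
Itgax: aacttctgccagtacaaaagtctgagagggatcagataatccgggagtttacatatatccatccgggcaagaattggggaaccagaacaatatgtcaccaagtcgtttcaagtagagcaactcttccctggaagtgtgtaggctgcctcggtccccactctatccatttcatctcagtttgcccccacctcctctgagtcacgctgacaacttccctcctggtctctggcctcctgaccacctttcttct
The Itgam window held 2 matches to GAGGAA or TTCCTC and the Itgax window none. This motif was added after the data were seen, and a link of the matches to the opposite changes was not tested. Shorter or other forms of PU.1 sites were not searched, so the Itgax window may hold them. On either strand, 23.3% of 32851 RefSeq promoter windows of this length held GAGGAA, as did those of 9 of the 24 members with a window. Neither window held TTACGTAA or TTATGTAA, which are forms of the sites bound by E4BP4. Other forms of E4BP4 sites were not searched, so either window may hold them. A match describes letters only, and no match says nothing about binding elsewhere. In GENCODE M21, 68.7% of the annotated Itgam exon bases also lie in exons of Gm49368, a gene model on the same strand that has no row in the expression table.

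Itgb2 itself, the shared beta chain, was at 223, 228 and 230.0 TPM in transgenic libraries, against 245, 245 and 243 TPM in wild type libraries. The groups did not overlap (log2 fold change -0.11 ± 0.0206 SE, limma adjusted p = 0.00823), but with upper-quartile scaling the difference was -0.01 and not called (adjusted p = 0.762). Itgal, the alpha L chain of LFA-1, had 51.9, 51.2 and 54.1 TPM in transgenic libraries and 55.2, 54.5 and 57.7 TPM in wild type libraries. It was not called (log2 fold change -0.09, limma adjusted p = 0.139) although the groups did not overlap, its sign turned to 0.0046 with upper-quartile scaling, and limma-voom called it lower (adjusted p = 0.0400). Itgad, the alpha D chain, lies next to Itgax and stayed below 0.35 TPM in all 6 libraries (43 transgenic and 19 wild type reads over 3 libraries each).

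The makeup of the beta 2 partners differed too, and such shares do not depend on how libraries are scaled. Of the summed TPM of Itgal, Itgam, Itgax and Itgad, Itgam took 52.6%, 52.9% and 53.0% in transgenic libraries and 57.6%, 58.9% and 58.3% in wild type libraries. Itgax took 36.3% ± 0.450 in transgenic libraries and 30.9% ± 0.613 in wild type libraries (SD, n = 3 each), and Itgal 10.8% in both groups. The ratio of Itgax to Itgam was 0.687 ± 0.0106 in transgenic and 0.530 ± 0.0160 in wild type libraries (SD, n = 3 each). These shares are transcript levels per length and were given no test, since the chains were picked with their changes known. The 4 alpha chains together summed to 481 to 490.2 TPM in transgenic and 512 to 517 TPM in wild type libraries.

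**Figure D2:**
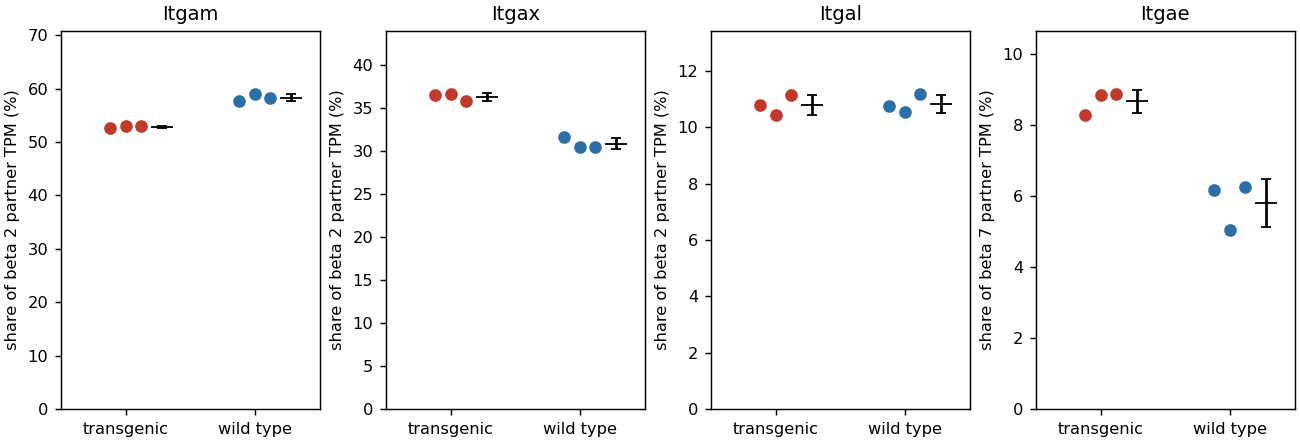
Share of Itgam, Itgax and Itgal in the summed TPM of the 4 beta 2 partners, and of Itgae in that of the 2 beta 7 partners (percent, axes start at 0). Points are libraries, transgenic left of wild type, with the mean and SD beside them. The Itgam share was lower and the Itgax and Itgae shares higher in each transgenic library than in any wild type library.

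Neutrophils also carry alpha M and beta 2, and their markers were lower in the same libraries. Of 14 neutrophil markers 10 were tested, 7 were called lower and 0 higher, against 13.2% and 8.71% of all tested genes. The summed level of the 14 markers was 434 to 489 TPM in transgenic libraries against 1026 to 1056 TPM in wild type libraries. The calprotectin genes S100a8 (154 TPM in transgenic, 409 TPM in wild type) and S100a9 (187 TPM in transgenic, 439 TPM in wild type) made up most of both sums, and no marker of the list was at 0 in all libraries. The part of these cells in the lower Itgam was not tested. In RNA of whole sorted populations, fewer cells of a type and less RNA per cell cannot be told apart.

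All 3 chains of the beta 7 receptors were higher in transgenic libraries, and leaving out 1 library could end the call of 2 of them. Itgae encodes alpha E (CD103), which binds E-cadherin and marks intraepithelial T cells and a subset of gut dendritic cells. It was at 3.08, 3.46 and 3.44 TPM in transgenic libraries, against 2.09, 1.68 and 2.15 TPM in wild type libraries, a ratio of means of 1.68. The lowest transgenic library lay well above the highest wild type library (log2 fold change 0.54 ± 0.111 SE, limma adjusted p = 0.0112, at most 0.0464 over the other settings), on 490 transgenic and 283 wild type reads. Itgb7, the beta 7 chain, was at 21.7, 20.6 and 21.7 TPM in transgenic libraries, against 15.5, 15.8 and 19.0 TPM in wild type libraries. Its groups did not overlap, with wild type replicate 3 nearest the transgenic values (log2 fold change 0.33 ± 0.0782 SE, limma adjusted p = 0.0195). The call was lost without transgenic replicate 1 (0.0598) or 3 (0.0643) and without wild type replicate 1 (0.0594) or 2 (0.0634). Itga4, the alpha 4 chain that forms the gut-homing receptor with beta 7 and VLA-4 with beta 1, was at 34.0, 35.6 and 35.3 TPM in transgenic libraries, against 31.8, 31.7 and 32.3 TPM in wild type libraries. The groups did not overlap (log2 fold change 0.13 ± 0.0379 SE, limma adjusted p = 0.0488), but leaving out any 1 library ended the call (0.0576 to 0.140).

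Cells other than macrophages also carry these chains, and several of their markers moved in the same libraries. Their counts stand against 8.71% called higher and 13.2% called lower over all tested genes. Of 17 T, NK and innate lymphoid markers with a row, 14 were tested, 6 were higher and 0 lower, and they summed to 171 to 182 TPM in transgenic libraries against 149 to 157 TPM in wild type libraries. Cd4, which some gut macrophages carry as well, made up 89.6 TPM of that sum in transgenic and 87.4 TPM in wild type libraries and was not called (limma adjusted p = 0.575), while Cd2 was at 14.1 TPM in transgenic and 9.57 TPM in wild type libraries (adjusted p = 0.0125). Of 13 tested conventional dendritic cell markers 4 were higher and 2 lower, with sums of 712 to 727 TPM in transgenic and 703 to 718 TPM in wild type libraries, led by Sirpa, which was lower, and Irf8, which was not called (limma adjusted p = 0.0567), both expressed by macrophages too. The 4 higher ones, named after their values were seen, were Batf3 (57.3 TPM in transgenic and 36.3 TPM in wild type libraries), Dpp4 (6.97 TPM in transgenic and 3.63 TPM in wild type libraries), Clec9a (1.64 TPM in transgenic and 0.716 TPM in wild type libraries) and Cadm1 (26.9 TPM in transgenic and 22.6 TPM in wild type libraries). Clec9a passed the filter through the transgenic group alone, where it is high. Batf3, Clec9a and Cadm1 are known from the type 1 dendritic cell lineage, and the other lower marker was Fscn1 (3.46 TPM in transgenic and 5.99 TPM in wild type libraries). Sirpa was not called with upper-quartile scaling. No marker of either list was at 0 in all libraries. The part of these cells in the higher Itgae and Itgb7 was not tested.

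Of the 8 tested alpha chains that can pair with beta 1, 4 were lower (Itga3, Itga5, Itga6 and Itga9), 2 higher (Itga4 and Itga8) and 2 not called (Itga1 and Itgav). Itga5, the fibronectin receptor alpha chain, was at 41.0, 38.9 and 39.8 TPM in transgenic libraries, against 48.2, 46.0 and 47.3 TPM in wild type libraries. Every transgenic library lay below every wild type one (log2 fold change -0.24 ± 0.0375 SE, limma adjusted p = 0.00345, at most 0.0285 over the other settings). Itga6, a laminin receptor chain, was at 19.2, 18.9 and 19.0 TPM in transgenic libraries, against 23.5, 23.5 and 24.2 TPM in wild type libraries. The groups lay far apart for their SDs of 0.184 TPM in transgenic and 0.420 TPM in wild type libraries (log2 fold change -0.30 ± 0.0426 SE, limma adjusted p = 0.00196, at most 0.0111 over the other settings). Itga9, which binds tenascin C and osteopontin, was at 58.6, 56.2 and 58.1 TPM in transgenic libraries, against 65.6, 66.1 and 64.6 TPM in wild type libraries. The groups did not overlap (log2 fold change -0.18 ± 0.0315 SE, limma adjusted p = 0.00526), and with upper-quartile scaling the call was lost (-0.09, 0.0954).

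Itgb1, the shared beta chain of these receptors, was at 125, 131 and 133 TPM in transgenic libraries, against 143, 137 and 145 TPM in wild type libraries. The groups did not overlap but lay close together (log2 fold change -0.13 ± 0.0343 SE, limma adjusted p = 0.0332). That call was lost with each rescaling of the libraries (0.0564 to 0.587), with no filter (0.0575), and without transgenic replicate 1 or 2 or wild type replicate 1 or 3 (0.0706 or more). Itga3, another laminin receptor chain, was at 1.86, 1.55 and 1.84 TPM in transgenic libraries, against 2.69, 2.60 and 2.67 TPM in wild type libraries. It was 1.52-fold lower by the ratio of means (log2 fold change -0.41 ± 0.106 SE, limma adjusted p = 0.0283), on 328 transgenic and 483 wild type reads, and leaving out any 1 library ended the call (0.0523 to 0.0884). Itga8, which binds nephronectin and is known from smooth muscle and mesangial cells, went the other way. It was at 1.63, 2.08 and 1.78 TPM in transgenic libraries, against 0.911, 1.19 and 0.866 TPM in wild type libraries (log2 fold change 0.51 ± 0.134 SE, limma adjusted p = 0.0314). Every transgenic library lay above every wild type one. Itga8 passed the filter through the transgenic group alone, where it is high, and kept its call only without wild type replicate 2 when single libraries were left out (0.0380, against 0.0518 to 0.108). Among the 12 alpha partners of beta 1, whose summed TPM was 190.1 ± 1.60 in transgenic and 209 ± 1.97 in wild type libraries, Itga4 took 18.4% ± 0.559 in transgenic and 15.3% ± 0.214 in wild type libraries (SD, n = 3 each), a description with no test.

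Itga1, a collagen receptor chain, had 1.14 to 1.76 TPM in transgenic and 1.71 to 2.04 TPM in wild type libraries and was not called (log2 fold change -0.23, 95% interval -0.55 to 0.08, limma adjusted p = 0.276). Itgb4, which pairs with alpha 6 in epithelial hemidesmosomes, had 2.15 to 2.60 TPM in transgenic and 2.65 to 4.02 TPM in wild type libraries and was not called either (-0.29, adjusted p = 0.185), except by limma-voom (-0.38, adjusted p = 0.0231). Epithelial markers were lower in the same libraries, with 10 of 15 called lower and 1 higher, and sums of 707 to 712 TPM in transgenic libraries against 1183 to 1189 TPM in wild type libraries, in which Car1 and Krt19 led. Endothelial markers were called lower for 9 of 12 tested and higher for 1 (133 to 137 TPM in transgenic, 147 to 151 TPM in wild type libraries, mostly Lyve1 and Pecam1, which macrophages also express). Fibroblast and smooth muscle markers were called lower for 7 of 14 and higher for 0 (165 to 171 TPM in transgenic, 217 to 221 TPM in wild type libraries, led by Col3a1 and Dcn). None of these markers was at 0 in all libraries, and over all tested genes 13.2% were called lower and 8.71% higher. Alpha 3, alpha 6 and beta 4 are also epithelial chains, and the part of such cells in the values above was not tested.

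**Figure D3:**
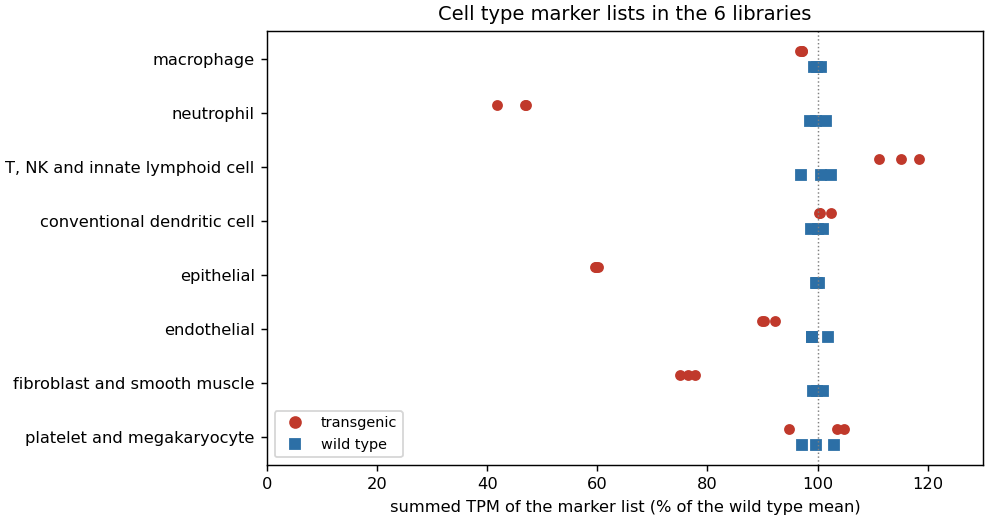
Summed TPM of 8 marker lists in each library as a percentage of the wild type mean, with transgenic libraries as red circles above wild type libraries as blue squares. Neutrophil, epithelial, fibroblast, endothelial and, by a small margin, macrophage sums were lower in each transgenic library than in any wild type library. The T, NK and innate lymphoid sums were higher in each transgenic library than in any wild type library.

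Receptors that contain alpha V bind vitronectin, apoptotic cell bridges and latent TGF-beta. Itgb5, which forms the apoptotic cell receptor with alpha V, was the second most abundant beta chain at 210.0, 209 and 209 TPM in transgenic libraries, against 229, 216 and 229 TPM in wild type libraries. The groups did not overlap (log2 fold change -0.10 ± 0.0277 SE, limma adjusted p = 0.0345), but the call was lost with each rescaling (0.0649 to 0.882), with no filter (0.0602), and without any 1 library other than wild type replicate 2 (0.0724 to 0.104). Itgav itself was at 31.7, 31.6 and 31.6 TPM in transgenic libraries, against 34.1, 32.5 and 32.2 TPM in wild type libraries. It was not called (-0.06, 95% interval -0.15 to 0.03, limma adjusted p = 0.357), and its sign turned to 0.04 with upper-quartile scaling. Of the summed TPM of the 5 beta chains that pair with alpha V, Itgb5 took 61.4% ± 0.891 in transgenic and 60.9% ± 0.354 in wild type libraries (SD, n = 3 each), with overlapping libraries. Itgb3 lay between 1.13 and 1.66 TPM in all libraries and was not called (adjusted p = 0.637). Itga2b, which pairs with it on platelets, lay between 0.215 and 0.604 TPM. Platelet markers summed to 570.1 to 630 TPM in transgenic and 583 to 619 TPM in wild type libraries, nearly all of it Pf4, which macrophages also express, with Ppbp next at 7.22 TPM in transgenic and 9.02 TPM in wild type libraries. Of 4 tested platelet markers 1 was called lower, against 13.2% of all tested genes. Itgb6 and Itgb8, whose receptors activate latent TGF-beta, stayed at or below 0.606 TPM in all libraries.

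**Figure D4:**
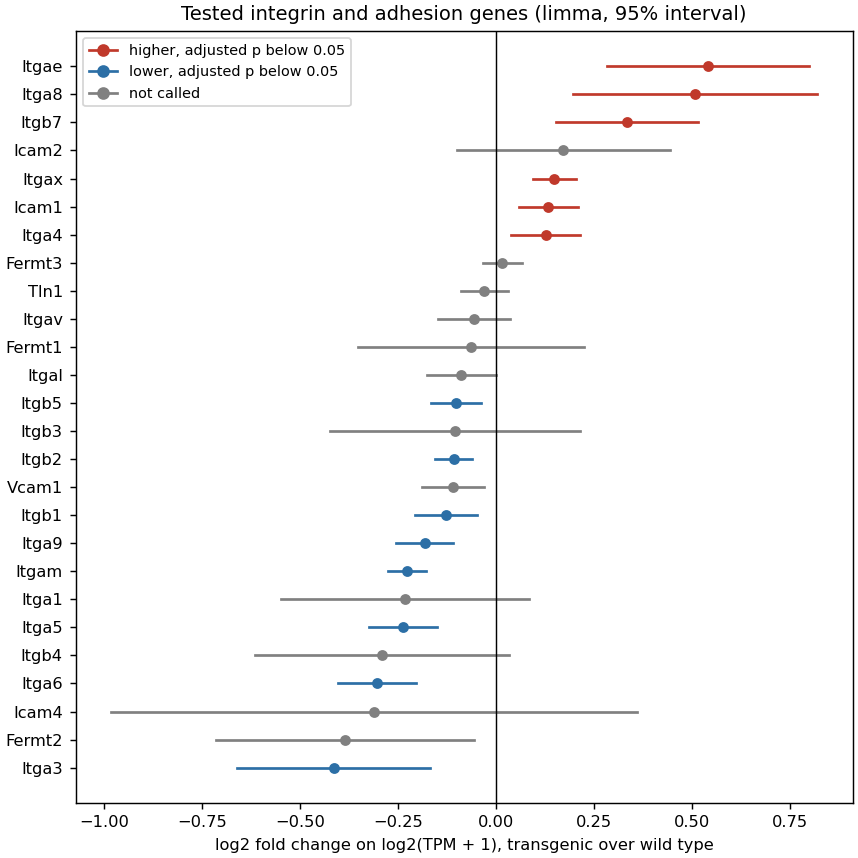
Log2 fold change on log2(TPM + 1), transgenic over wild type, of the 26 tested genes with the 95% interval from limma. Red genes were called higher, blue genes lower and grey genes were not called. Itgae, Itga8 and Itgb7 had the largest rises, and the intervals of Fermt3 and Tln1 lay within 0.1 of 0.

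The Icam and Vcam receptors were measured in the same macrophage libraries as the integrins, and no opposing cells were assayed. Icam1 is the ligand of LFA-1 and complement receptor 3. It was at 132, 136 and 134 TPM in transgenic libraries, against 124, 117 and 125 TPM in wild type libraries. All transgenic libraries were above all wild type ones (log2 fold change 0.13 ± 0.0326 SE, limma adjusted p = 0.0232), and the call was lost without transgenic replicate 2 (0.0793) or 3 (0.0664) or wild type replicate 2 (0.0532). Vcam1, the ligand of VLA-4, was at 183, 197 and 184 TPM in transgenic libraries, against 202, 209 and 198 TPM in wild type libraries. Transgenic replicate 2 lay just below the lowest wild type library, and the gene was not called (-0.11, 95% interval -0.19 to -0.03, limma adjusted p = 0.0556). It was called without transgenic replicate 2 (0.0202) and by limma-voom on recovered reads (6.66e-05). Icam2, another LFA-1 ligand, had 4.18 to 5.42 TPM in transgenic and 3.89 to 4.84 TPM in wild type libraries and was not called (adjusted p = 0.344).

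Icam4, known from red cell precursors, lies 617 bases after Icam1 on chromosome 9 (21029432 to 21030596, mm10). It had 1.02, 0.155 and 0.646 TPM in transgenic libraries and 1.01, 1.64 and 0.380 TPM in wild type libraries, on 25 transgenic and 40 wild type reads, and passed the filter through the wild type group alone. The libraries overlapped widely and the gene was not called (limma adjusted p = 0.492). Of the 24 members with a RefSeq window, only Icam4 held TTACGTAA, a palindrome that E4BP4 binds, in the 250 bases before the start. That sequence was in 0.113% of the 32851 windows, and TTATGTAA, with its reverse complement TTACATAA, was in 0.819% of them and in those of 0 members. The window (GRCm38.p6, plus strand, chr9:21029182-21029431) is shown with the match in capitals, whose first base lies 178 bases before the start.
Icam4: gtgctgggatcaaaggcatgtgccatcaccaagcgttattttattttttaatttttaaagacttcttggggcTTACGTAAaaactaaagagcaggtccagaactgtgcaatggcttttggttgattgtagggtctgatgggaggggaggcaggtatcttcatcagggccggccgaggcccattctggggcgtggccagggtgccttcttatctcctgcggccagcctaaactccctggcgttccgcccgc
In GENCODE M21, all annotated Icam4 exon bases and 11.7% of those of Icam1 also lie in exons of Gm47079 on the opposite strand. The library kit is not described as keeping strand, so reads of these genes and Gm47079 may not be told apart.

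Of the 4 tested activators of integrins, 0 were called on TPM as deposited, while Fermt3 and Fermt2 were each called under 1 other setting. Fermt3, or kindlin-3, the kindlin of blood cells, was at 185, 179.7 and 182 TPM in transgenic libraries, against 182, 180.0 and 179 TPM in wild type libraries. The groups overlapped and the 95% interval of the log2 fold change was -0.03 to 0.07 (limma adjusted p = 0.636), though upper-quartile scaling called it higher (0.11, 0.0122). Tln1, the main talin of leukocytes, was at 163, 155 and 157 TPM in transgenic libraries, against 162, 162 and 160.3 TPM in wild type libraries. The groups overlapped (95% interval -0.09 to 0.03, adjusted p = 0.469), and the sign turned under upper-quartile scaling (0.07) and the upper quartile of tested genes (0.0081). Fermt2, a kindlin of adherent tissue cells, had 0.803, 1.34 and 1.28 TPM in transgenic libraries and 1.79, 1.75 and 1.80 TPM in wild type libraries. It was 1.56-fold lower by the ratio of means with groups that did not overlap, and was not called (-0.39, adjusted p = 0.0937), but limma-voom on recovered reads called it lower (-0.67, adjusted p = 0.0319). Fermt1, the epithelial kindlin, lay between 1.18 and 1.52 TPM in all libraries (adjusted p = 0.763).

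The 9 members below the filter were Itga2, Itga2b, Itga7, Itga10, Itga11, Itgad, Itgb6, Itgb8 and Tln2, with values between 0.0240 and 1.13 TPM. With no filter 1 of them was called, against 12.2% of the 19512 genes then tested (4.73% higher and 7.44% lower). Itga7, the muscle laminin receptor chain, was at 0.229, 0.387 and 0.358 TPM in transgenic libraries, against 1.02, 0.940 and 0.898 TPM in wild type libraries (limma with no filter, log2 fold change -0.56 ± 0.0787 SE, adjusted p = 0.00599), on 50 transgenic and 143 wild type reads. Tln2, the talin of muscle and brain, had 1.13, 0.808 and 0.954 TPM in transgenic libraries and 0.539, 0.583 and 0.469 TPM in wild type libraries, and its adjusted p with no filter was 0.0510. For the other 7 the adjusted p with no filter was 0.0619 to 0.873. Of the Itga10 and Itgad exon bases, 33.5% and 19.7% also lie in exons of other genes in GENCODE M21, so their low values are uncertain.

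In the authors' deposited table, which compares the same libraries and gives the gene span as each row's length, 24.4% of the 20884 rows with a fold change had an adjusted p below 0.05, 11.2% higher and 13.2% lower in transgenic libraries. Of the 35 members, 7 were called higher and 15 lower there, and all 14 members called here were called in the same direction. The others called there were Tln2 (0.91) and, lower, Itga7 (-1.02), Itgb4 (-0.41), Itga1 (-0.30), Itgal (-0.14), Vcam1 (-0.13), Itgav (-0.09) and Tln1 (-0.09), as log2 fold changes in the authors' deposited table. Itgam was at -0.26 (adjusted p = 1.65e-52), Itgax at 0.10 (2.57e-06) and Itgae at 0.72 (1.87e-08) in the authors' deposited table. Both tables rest on the same 6 libraries, so the second is no independent evidence.

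**Figure D5:**
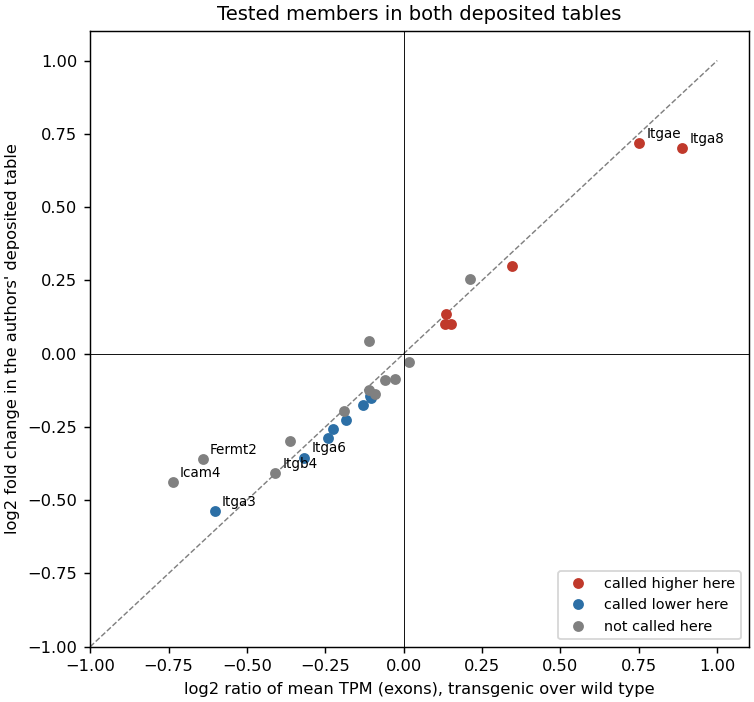
Log2 fold change in the authors' deposited table against the log2 ratio of mean TPM for the 26 tested genes, transgenic over wild type, with the line of equal values dashed. Points are coloured by the call from limma on TPM, and the 14 called genes have the same sign on both axes.

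Most tested matrix ligands of these receptors were called lower. The list was chosen with earlier results of these data known, so its counts and median are a description with no test. Of 34 listed matrix ligands 24 were tested and 2 (Fga and Fgb) were at 0 in all libraries. Of the 24 tested, 16 were called lower and 0 higher, against 13.2% and 8.71% of all tested genes. Their median log2 fold change was -0.50 against -0.01 for all tested genes. Spp1, osteopontin, which alpha 9 and alpha V receptors bind, was at 39.4 ± 2.91 TPM in transgenic and 116 ± 2.47 TPM in wild type libraries (SD, n = 3 each), and Thbs1, thrombospondin 1, at 517 ± 4.82 TPM in transgenic and 874 ± 5.04 TPM in wild type libraries. Col4a1, a basement membrane collagen chain, had a log2 fold change of -1.29 and Tgfbi, which is secreted and binds integrins and collagen, one of -0.25. Mfge8, the bridge between apoptotic cells and alpha V receptors, fell by 0.48 on the log2 scale and was named after its value was seen. The list also holds collagens and laminins of fibroblasts, whose summed markers were lower as given above. Col1a1, Col1a2 and Col3a1 are in both lists, so that sum partly repeats the same values. The part of those cells was not tested. Of 12 tested ligands on cells and carriers of latent TGF-beta 1 was higher, Adam15 (0.20), and 2 were lower, Tgfb1 (-0.17) and Pecam1 (-0.17), while Cdh1, the E-cadherin ligand of alpha E, had a log2 fold change of -0.21 that was not called (limma adjusted p = 0.0823). These counts of 1 higher and 2 lower were near the shares of all tested genes given above. The median of the list was -0.07.

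Among regulators inside the cell and other membrane partners, calls went both ways, and their counts stand against 8.71% higher and 13.2% lower over all tested genes. Of 25 tested inside-out activators and tail-binding inhibitors 2 were higher and 3 lower, near those shares (median log2 fold change 0.02). Rassf5, the Rap effector that activates LFA-1, and the adaptor Dok1 had log2 fold changes of 0.20 and 0.19, and Rap1b and the Rap exchange factor Rapgef1 had -0.10 and -0.19. Of 38 focal adhesion linkers and outside-in kinases 3 were higher and 8 lower (median -0.05). The actin crosslinker Actn1 was at 15.6 TPM in transgenic and 22.0 TPM in wild type libraries, and paxillin (Pxn) at 93.6 TPM in transgenic and 105 TPM in wild type libraries. Vasp was at 154 TPM in transgenic and 178 TPM in wild type libraries, and the tensin Tns1, which was higher, at 20.2 TPM in transgenic and 15.1 TPM in wild type libraries. Of 15 tetraspanins and lateral partners 2 were higher and 7 lower (median -0.09). The urokinase receptor gene Plaur, Bsg and Cd53 had log2 fold changes of -0.29, -0.23 and -0.20, and the caveolin Cav1, which endothelial cells also express, one of -0.81. Of 16 selectins and other leukocyte adhesion receptors 5 were higher and 6 lower (median -0.02). Cd226, an activating receptor of lymphocytes, was at 2.51 TPM in transgenic and 0.678 TPM in wild type libraries. It passed the filter through the transgenic group alone, where it is high. The largely endothelial genes Cd34, Mcam and Selp had log2 fold changes of -1.05, -0.98 and -0.76. The highest limma adjusted p among the genes named as higher or lower in these 2 paragraphs was 0.0448. Of 8 tested B and plasma cell markers 1 was higher and 0 lower, with Jchain at 204 TPM in transgenic and 165 TPM in wild type libraries and Cd79b at 24.6 TPM in transgenic and 22.9 TPM in wild type libraries. Of 4 tested mast cell and basophil markers 1 was higher, Mcpt1 (10.1 TPM in transgenic and 3.81 TPM in wild type libraries), and 1 lower, Hdc (15.6 TPM in transgenic and 28.6 TPM in wild type libraries). Of 3 tested eosinophil markers 1 was higher, Alox15 (9.72 TPM in transgenic and 5.01 TPM in wild type libraries), with Siglecf at 1.85 TPM in transgenic and 1.11 TPM in wild type libraries and Epx and Ear6 at 0 in all libraries.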

How the data were processed

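Per the labels' protocols, macrophages were isolated on a cell sorter and poly(A) RNA was taken from 20 ng total RNA. Per the submitters' processing notes, the tools were bcl2fastq, STAR, HOMER 4.11.1 and DESeq2 and the build was mm10; the sources used here give neither their order nor their settings. The authors deposited TPM for 25124 gene rows, each counting the exons of 1 RefSeq transcript, per the file headers. A second table deposited by the authors holds log2 values of the 6 libraries with their comparison (log2 fold change, raw and adjusted p-value), which runs transgenic over wild type by its sign against those values.

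Limma-trend (limma 3.58.1, R 4.3.3) was fitted on log2(TPM + 1) with genotype as the single term and all 6 libraries, for genes averaging 1 TPM or more in either group, and p-values were adjusted by Benjamini-Hochberg over all 12633 genes. This scale understates the change of low genes. TPM times exon length stepped in whole reads (tolerance 0.1 reads plus the rounding of TPM, 100.0% of values up to 1000 reads), which gave reads per gene. A count of 0 allows 3 reads, or 0.113 to 0.122 TPM for a transcript of 2000 bases, for counting error only. No pair of libraries agreed within sampling noise (chi-square per degree of freedom 2.06 to 2.75 within groups). Alternatives were the pseudocount (0.1), no filter, 3 rescalings, limma-voom on recovered reads, the replicate number as a block and leaving out each library. Of the rescalings, the upper quartile of tested genes and median ratios were added after seeing the data.

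Members and gene lists were chosen with earlier results of these data known. All members are named. Values in every library are given for those called with an absolute log2 change of at least 0.32, for those at 50 TPM or more and for others the text turns on. From each pathway list the 4 genes with the lowest p are named, and from each marker list the 2 most abundant. Promoters matched 24 of 35 members by symbol, and GAGGAA was added to the motifs after seeing the data. The 250 bases before the start are shown. Both tables list 29 of the 35 members under the same transcript.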

Additional observations from a re-analysis of the deposited data

How the results depend on the processing

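Of all tested genes, upper-quartile scaling called 2145 higher and 914 lower, against 1100 and 1666 as deposited, and libraries left out in turn gave 704 to 883 higher and 1231 to 1373 lower. Members called higher numbered 3 with the replicate block and 2 to 4 with a library left out. Members called lower numbered 4 with upper-quartile scaling, 12 with limma-voom on recovered reads and 5 to 7 with a library left out. The cause of these differences was not tested. Signs turned for Itgal (0.0046), Itgav (0.036) and Tln1 (0.065) with upper-quartile scaling and for Tln1 (0.0081) with the upper quartile of tested genes. Over single members and 13 alternatives, 276 values kept direction and side of the threshold, 48 lost a call, 7 gained one and 4 turned sign. Icam4 had no value under some alternatives because it fell below the filter. Transgenic and wild type libraries of the same replicate number did not deviate together (correlation -0.0012, -0.015 and 0.034 over 9049 genes). This check found no shared deviation by number, but it cannot exclude that libraries were handled in pairs. The replicate block gave 922 genes higher and 1457 lower, ended the calls of Icam1, Itga3, Itga4 and Itga8 and called Vcam1 (limma adjusted p = 0.0281). Depth limits the members with the lowest levels: Icam4 rested on 25 transgenic and 40 wild type reads.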
